A study of Rattus norvegicus with 12 samples.

Results

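The genes described here encode potassium channels and the accessory subunits named with them, in rat brain after a stroke model. They were chosen by symbol: every probe set that the array annotation assigned to exactly 1 gene whose symbol starts with Kcn was taken. This gave 126 probe sets of 75 genes, out of 20832 probe sets of 14218 genes. The 12 animals were male Sprague-Dawley rats, 8 weeks old, and RNA was taken from the left cerebral hemisphere. Occlusion of the middle cerebral artery with later reperfusion (MCAO) was done in 7 of them, and a sham operation (Sham) in 5. All tissue was taken 24 h after reperfusion, and no drug or genetic change is named for either group. The side of the occlusion is not given. One rat corresponds to 1 array, and the number of arrays limits the precision.

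Potassium channels let potassium leave or, for the inward rectifiers, enter the cell, and so set the resting potential and the shape and rate of action potentials. Voltage-gated channels (Kcna, Kcnb, Kcnc, Kcnd, Kcnh, Kcnq) open on depolarization, while Kcnt and Kcnm channels open with internal sodium or calcium. Inward rectifiers (Kcnj) and two-pore channels (Kcnk) carry the resting conductance of neurons and glia. Accessory subunits (Kcnab, Kcnip, Kcne) change the gating and surface delivery of the pore-forming ones. In the ischemic brain, potassium leaves depolarized cells and accumulates outside them, and astrocytes take part of it up.

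Of the 75 genes, 63 had a probe set that passed the filter on low signal, which was a log2 signal above 6.61 in at least 5 arrays. In the deposited values many probe sets were near-constant, with an SD over the 12 arrays under 0.01. This held for 27 of the 63 tested Kcn genes (42.9%) and for 47.8% of all tested genes. These genes are counted apart, since such a value cannot be read as low or as equal expression. Glyceraldehyde phosphate dehydrogenase control probe sets with high signal were near-constant too. The remaining 36 genes are called varying below, and the probe set of highest mean signal stands for each gene.

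Among the 36 varying Kcn genes, 20 were lower and 2 were higher in MCAO (limma, Benjamini-Hochberg adjusted p under 0.05), and 14 did not pass the test. Over all 6340 varying genes tested, 34.0% were lower and 34.8% were higher. The median log2 change was -0.33 for the varying Kcn genes and 0.02 for all varying genes, and 31 Kcn genes had a negative and 5 a positive change. The lower genes came from 11 of the 15 subfamily groups, and the 2 higher ones were Kcne4, an accessory subunit, and Kcnk10, a two-pore channel. Kcnk10 passed the filter through 6 MCAO rats and 0 Sham rats, so it was tested because it was high in MCAO. In 10 of the lower genes every MCAO rat was below every Sham rat, a pattern found in 16.2% of all varying genes. In 1 gene, Kcne4, every MCAO rat was above every Sham rat, against 17.9% of all varying genes. Counted by probe set, 21 of 51 varying Kcn probe sets were lower and 3 were higher, against 30.7% and 36.9% of all varying probe sets. Of the 3 higher ones, those of Kcnk10 and Kcnk6 passed the filter through MCAO rats only. A lower signal in a piece of tissue can come from fewer cells of a type or from less RNA per cell, and these cannot be told apart here.

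**Figure D1:**
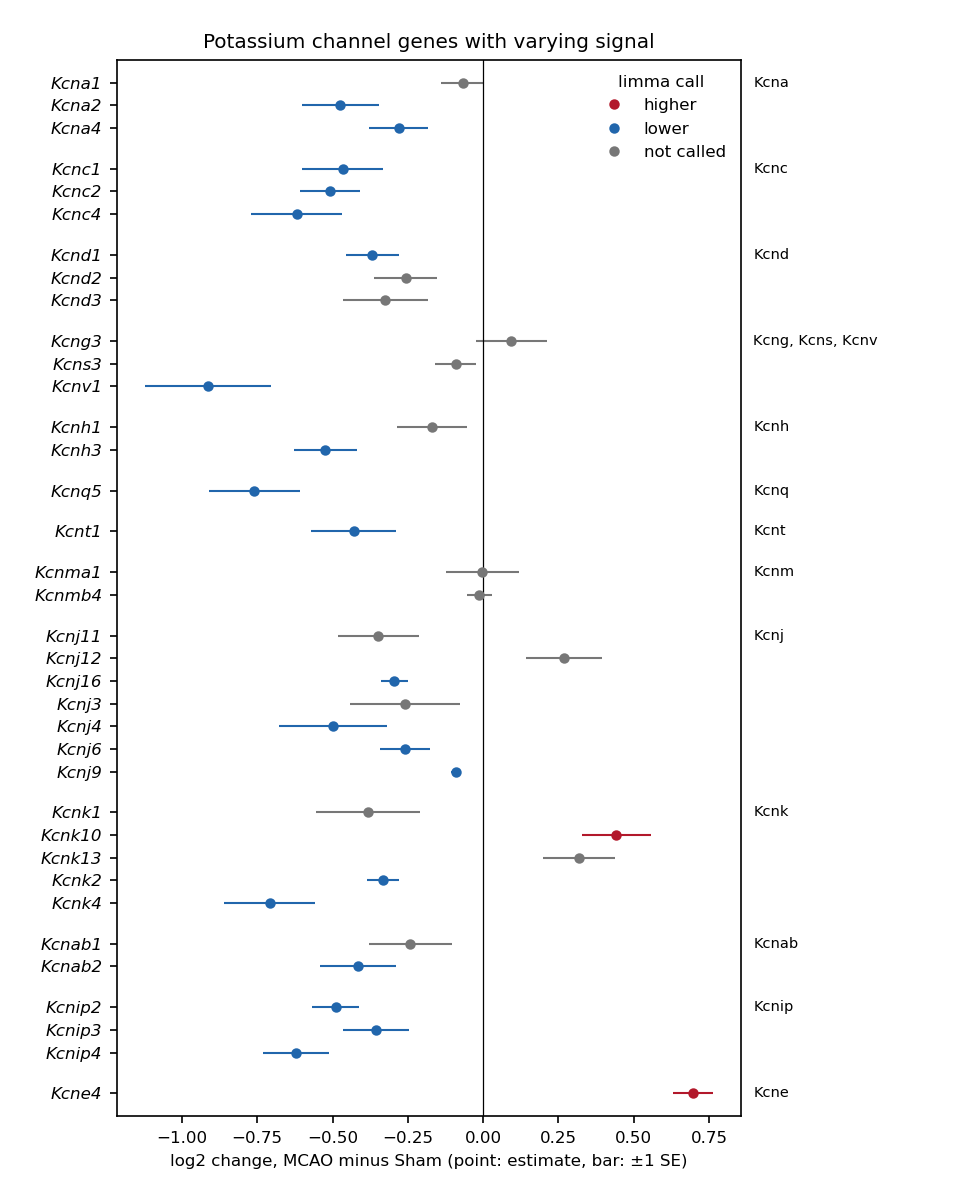
Log2 change, MCAO minus Sham, of the 36 varying potassium channel genes, ordered by subfamily; points are limma estimates over 7 MCAO and 5 Sham rats, bars are 1 SE, and colours give the call. The 20 lower genes (blue) lie left of 0, from -0.09 for Kcnj9 to -0.91 for Kcnv1, and the 2 higher genes (red), Kcnk10 and Kcne4, lie right of it.

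Upstream DNA was available from RefSeq for 52 of the 75 genes (assembly GRCr8, 250 bases before each annotated start). Of the 11 varying genes whose groups did not overlap, 8 had a window, and 4 of those windows held letters of a motif of a factor family known from injury, cytokine or low-oxygen responses. These 4 are shown because they belong to genes that separated the groups and because they held a match, with the matching letters in capitals. The other windows among the 8 held no such match and are not shown. The share of all windows with any such match was not counted. The motifs, searched on both strands, were AP-1 (TGANTCA), the STAT site (TTCNNNGAA) and the hypoxia element core (ACGTG). N accepts any base, and in the AP-1 letters of Kcnj16 that base is A. The cyclic AMP response element (TGACGTCA) and the GC box (GGGCGG) were searched too and are not capitalized.
Kcnc2 (chr7:49587364-49587613, plus strand, STAT letters): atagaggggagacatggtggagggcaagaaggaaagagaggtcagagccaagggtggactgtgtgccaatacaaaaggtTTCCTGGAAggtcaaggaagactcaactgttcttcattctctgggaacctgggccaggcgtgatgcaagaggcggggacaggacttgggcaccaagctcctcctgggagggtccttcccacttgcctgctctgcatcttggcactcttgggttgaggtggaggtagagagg
Kcnk4 (chr1:213555862-213556111, minus strand, STAT letters): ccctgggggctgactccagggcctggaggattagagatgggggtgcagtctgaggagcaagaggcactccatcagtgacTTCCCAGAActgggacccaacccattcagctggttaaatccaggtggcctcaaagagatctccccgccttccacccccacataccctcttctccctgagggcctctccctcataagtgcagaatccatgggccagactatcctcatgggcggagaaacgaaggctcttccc
Kcnj16 (chr10:96517074-96517323, plus strand, AP-1 letters, then the hypoxia core): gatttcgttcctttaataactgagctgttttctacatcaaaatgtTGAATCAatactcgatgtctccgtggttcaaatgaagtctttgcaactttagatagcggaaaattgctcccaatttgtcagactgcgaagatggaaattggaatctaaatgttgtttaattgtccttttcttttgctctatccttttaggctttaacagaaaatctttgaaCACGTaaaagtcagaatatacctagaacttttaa
Kcne4 (chr9:87695798-87696047, plus strand, the hypoxia core on both strands, overlapping in 1 palindrome): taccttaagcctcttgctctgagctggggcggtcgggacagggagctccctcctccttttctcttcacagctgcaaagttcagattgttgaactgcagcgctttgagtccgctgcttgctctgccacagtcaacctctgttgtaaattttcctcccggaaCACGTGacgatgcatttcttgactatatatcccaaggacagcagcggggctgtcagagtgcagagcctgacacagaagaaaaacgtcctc

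These letters were no more than a description of the windows. AP-1 letters were found in 6.4% of all 27457 promoter windows, STAT letters in 7.6%, and the hypoxia core in 16.9%. Of the 16 lower Kcn genes with a window, 1 held AP-1 letters, 2 held STAT letters and 1 held the hypoxia core. The cyclic AMP element was found in 0 of these 16 windows and in 1.7% of all windows. A GC box was found in 8 of the 16 lower genes, in 30 of the 52 Kcn windows and in 32.3% of all windows. The windows of Kcn genes were rich in G and C, with a median of 65.0% against 52.0% for all windows.

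Of 13 voltage-gated Kcna to Kcnd genes, 12 were tested and 9 varied. Of these 9, 6 were lower, 0 were higher and 3 did not pass, against 34.0% lower and 34.8% higher among all varying genes, and the median log2 change was -0.37. All 3 Kcnc genes fell by their brightest probe set, and the call of Kcnc2 was lost when its probe sets were averaged (-0.10, adjusted p = 0.117). They encode the Kv3 channels, whose fast closing lets interneurons and other cells fire at high rates. Kcnc2 had log2 signals of 10.70, 10.81, 10.77, 10.80 and 10.65 in the Sham rats, and from 9.84 to 10.53 (median 10.22) in the MCAO rats. No MCAO rat reached the Sham range. Its log2 change was -0.51 ± 0.10 (SE; limma adjusted p = 0.0037).

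Kcnc4 gave 8.31, 8.60, 8.59, 8.44 and 8.29 in Sham, and between 7.39 and 8.37 (median 7.74) in MCAO. Only MCAO 4, the highest of its group, lay within the Sham range. The change was -0.62 ± 0.15 (SE; limma adjusted p = 0.00936). Kcnc1, the third gene, changed by -0.47 ± 0.14 (SE; limma adjusted p = 0.0191), and 6 of 7 MCAO rats were below all Sham rats. Without Sham 2 its adjusted p was 0.0529.

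Kcna genes encode Kv1 channels, which sit mainly in axons and near nerve terminals and limit repetitive firing. Of 5 tested, 3 varied and 2 fell, against 34.0% lower among all varying genes. Kcna2 read 10.43, 10.45, 10.40, 10.34 and 10.24 in Sham rats, against 9.51 to 10.41 (median 9.89) in MCAO rats. MCAO 4 was again inside the Sham range and the other 6 were below it. The log2 change of Kcna2 was -0.47 ± 0.13 (SE; limma adjusted p = 0.0141). Kcna4, which encodes a rapidly inactivating Kv1 subunit, changed by -0.28 ± 0.10 (SE; limma adjusted p = 0.0401). Its call was lost without any one of MCAO 3, MCAO 4, MCAO 5, Sham 1, Sham 2 or Sham 3 (adjusted p from 0.0512 to 0.0948). Kcna1, whose mutations cause episodic ataxia, had a change of -0.07 ± 0.07 (SE), which did not pass the test (limma adjusted p = 0.478).

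The Kcnd genes encode Kv4 channels, which carry the A-type current of dendrites and cell bodies. Among the 3 varying genes 1 fell, near the 34.0% lower among all varying genes. Kcnd1 had 7.16, 7.45, 7.52, 7.52 and 7.35 in Sham and 6.83 to 7.33 (median 7.03) in MCAO. Of the MCAO rats, MCAO 2 alone was within the Sham range. This gave a change of -0.37 ± 0.09 (SE; limma adjusted p = 0.0087). Kcnd2, the main Kv4 subunit of many forebrain neurons, had a change of -0.26 ± 0.11 (limma adjusted p = 0.0723), and Kcnd3 had -0.33 ± 0.14 (limma adjusted p = 0.086). Neither passed. Leaving out MCAO 4 brought Kcnd2 to an adjusted p of 0.017, and leaving out MCAO 2 brought Kcnd3 to 0.00902. With near-constant probe sets left out, Kcnd2 and Kcnd3 passed (limma adjusted p = 0.0347 and 0.0401).

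Kcnip genes encode the KChIP proteins, calcium-binding subunits that assemble with Kv4 channels. All 3 varying members of 4 tested fell, against 34.0% lower among all varying genes. For Kcnip4 the Sham signals were 10.06, 10.12, 10.07, 10.01 and 10.10, and the MCAO signals ran from 9.06 to 9.80 (median 9.39). The groups were fully apart, and the change was -0.62 ± 0.11 (SE; limma adjusted p = 0.0027). Kcnip2 signals were 9.21, 9.32, 9.34, 9.36 and 9.11 in Sham and 8.64 to 9.09 (median 8.76) in MCAO, again with no overlap. Its change was -0.49 ± 0.08 (SE; limma adjusted p = 0.00191). Kcnip3, whose product also acts as a calcium-dependent transcriptional repressor known as DREAM, changed by -0.36 ± 0.11 (SE; limma adjusted p = 0.0244). Without Sham 1, Sham 2 or Sham 3 it did not pass (adjusted p from 0.0515 to 0.0574). Kcnip1 was near-constant.

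The beta subunits of Kv1 channels, which bind on the inside of the channel, were measured by 2 varying genes of 3. Kcnab2 had 9.97, 10.02, 10.20, 10.08 and 9.88 in Sham rats and 9.32 to 9.94 (median 9.49) in MCAO rats. MCAO 2 and MCAO 4 lay within the Sham range and the other 5 lay below it. The log2 change was -0.42 ± 0.13 (SE; limma adjusted p = 0.0245), and without Sham 2, Sham 3 or Sham 4 the adjusted p ranged from 0.0502 to 0.0643. Kcnab1 had -0.24 ± 0.14 (SE), which did not pass (limma adjusted p = 0.182).

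The electrically silent subunits (Kcng, Kcns, Kcnv) form no channel alone and change the Kv2 or Kv3 channels they join. Of 6 tested, 3 varied. Kcnv1, mainly a neuronal gene of the cortex and hippocampus, had the largest decrease of all varying Kcn genes. Its signals were 9.56, 9.36, 9.41, 9.33 and 9.40 in Sham and 7.94 to 9.09 (median 8.35) in MCAO. The groups did not overlap, and the MCAO rats were spread over more than 1 log2 unit, from MCAO 6 at the bottom to MCAO 4 at the top. The log2 change was -0.91 ± 0.21 (SE; limma adjusted p = 0.00698), which put the MCAO mean at 53.1% of the Sham mean on the linear scale. Kcns3 had -0.09 ± 0.07 (limma adjusted p = 0.308) and Kcng3 had 0.09 ± 0.12 (limma adjusted p = 0.561), and neither passed. The only Kcnb gene on the array with a probe set of its own, Kcnb2, was near-constant.

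**Figure D2:**
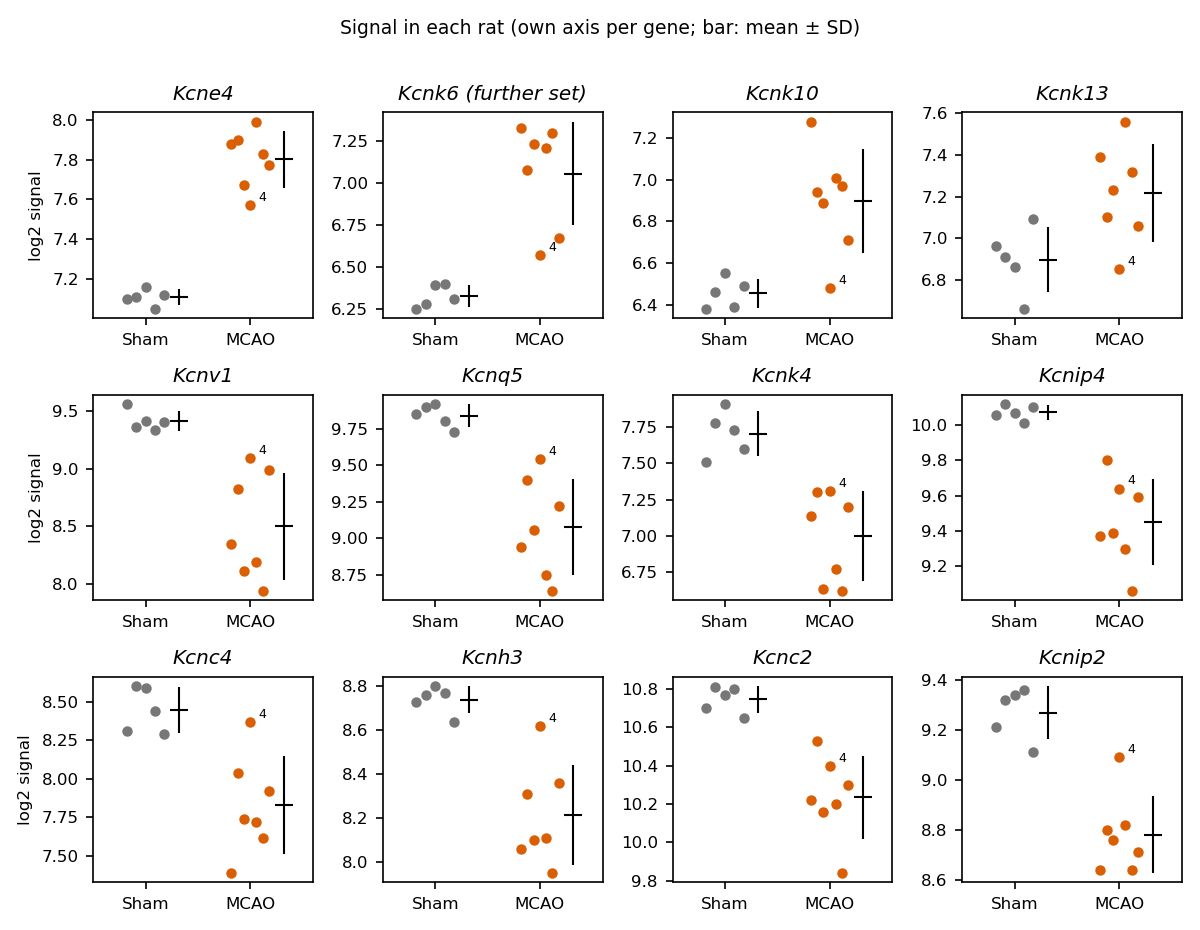
Log2 signal of 12 potassium channel genes in each of the 5 Sham and 7 MCAO rats, with the group mean and SD as a bar beside the points; MCAO 4 is marked and each panel has its own axis. Kcne4 and the further probe set of Kcnk6 are above all Sham rats in all 7 MCAO rats, and MCAO 4 is the MCAO rat closest to Sham in most panels.

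Among the slower voltage-gated genes, Kcnq5 encodes a subunit of the M-current channel, which opens below the firing threshold and calms neurons. Sham signals were 9.85, 9.90, 9.92, 9.80 and 9.73, and MCAO signals were 8.64 to 9.54 (median 9.06). All MCAO rats were below all Sham rats. The change was -0.76 ± 0.15 (SE; limma adjusted p = 0.00388), a mean of 59.1% of Sham on the linear scale. Both further probe sets of Kcnq5 were near-constant, and the average over its probe sets changed by -0.25 (adjusted p = 0.00347). Averaging with near-constant values shrinks the change and the spread between rats alike, so this average is no second reading of the gene. Kcnq3, a partner in the same channel, was near-constant, and Kcnq1 was below the filter.

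Kcnh3, an ether-a-go-go type channel of forebrain neurons, had 8.73, 8.76, 8.80, 8.77 and 8.64 in Sham and 7.95 to 8.62 (median 8.11) in MCAO. The highest MCAO value, that of MCAO 4, was just under the lowest Sham value. Kcnh3 changed by -0.52 ± 0.10 (SE; limma adjusted p = 0.00397). Kcnh1 had -0.17 ± 0.12 (SE), which did not pass (limma adjusted p = 0.275).

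The ion-activated channels were represented by 3 varying genes. Kcnt1, the sodium-activated channel Slack, had 7.53, 7.88, 7.82, 7.74 and 7.47 in Sham and 6.96 to 7.82 (median 7.16) in MCAO. MCAO 2 lay among the Sham rats, and the other 6 were below them. Its change was -0.43 ± 0.14 (SE; limma adjusted p = 0.0315). The call was lost when any one of 7 rats was left out (MCAO 1, 3, 5 or 6, or Sham 2, 3 or 4; adjusted p from 0.0582 to 0.0807).

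The large-conductance calcium-activated channel did not pass the test in either subunit. Kcnmb4, its brain-type beta subunit, had 9.46, 9.40, 9.41, 9.38 and 9.51 in Sham and 9.31 to 9.55 (median 9.38) in MCAO. The MCAO rats lay on both sides of the Sham range, and the change was -0.01 ± 0.04 (SE; limma adjusted p = 0.838), with a sign that turned in 3 of 25 alternative analyses. Kcnma1, the pore subunit, had a change of -0.0033 ± 0.12 (SE; limma adjusted p = 0.985), whose sign turned in 8 of them. The small-conductance channels, Kcnn1 and Kcnn3, were near-constant, and Kcnn4 was below the filter.

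Of 15 inward rectifier genes, 12 were tested, 7 varied and 4 fell, against 34.0% lower among all varying genes. Kcnj16 encodes Kir5.1, which joins the astrocyte channel Kir4.1 and is sensitive to pH. It had 8.21, 8.32, 8.33, 8.30 and 8.39 in Sham rats, and 7.92 to 8.18 (median 8.01) in MCAO rats. The groups were narrow and did not overlap, and the log2 change was -0.30 ± 0.04 (SE; limma adjusted p = 0.00161). The gene for Kir4.1 itself, Kcnj10, was below the filter. Its probe set was also near-constant, so the value cannot be read as low expression.

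Kcnj4, a strong inward rectifier of forebrain neurons, had 8.40, 8.33, 8.40, 8.35 and 8.36 in Sham and 7.45 to 8.46 (median 7.83) in MCAO. The Sham rats agreed closely while the MCAO rats spread widely, and MCAO 4 was above every Sham rat. The change was -0.50 ± 0.18 (SE; limma adjusted p = 0.0471). It was lost when any rat other than MCAO 2, MCAO 4 or MCAO 7 was left out (adjusted p from 0.0765 to 0.0911).

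The G protein-gated rectifiers, which slow neurons when inhibitory receptors are active, gave small changes. Kcnj6 changed by -0.26 ± 0.08 (SE; limma adjusted p = 0.0295), a call lost without MCAO 1, Sham 1, Sham 2 or Sham 3 (adjusted p from 0.0548 to 0.0702). Kcnj9 changed by -0.09 ± 0.016 (SE; limma adjusted p = 0.00275), with all MCAO rats below all Sham rats by a narrow margin. With near-constant probe sets left out, the SE of Kcnj9 was 0.0385 and the call was lost (limma adjusted p = 0.0507). Kcnj3 had -0.26 ± 0.18 (limma adjusted p = 0.282) and did not pass. Kcnj11, the pore of the ATP-sensitive channel that opens when energy falls, had -0.35 ± 0.13 (limma adjusted p = 0.0596), and without MCAO 2 the adjusted p was 0.00791. It also passed with near-constant probe sets left out (limma adjusted p = 0.0256). Kcnj12 had 0.27 ± 0.13 (limma adjusted p = 0.112), which did not pass.

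The two-pore channels were the subfamily with calls in both directions, which rests on Kcnk10 alone for the higher side. Kcnk10 passed the filter through MCAO rats only. Of 11 genes, 10 were tested and 5 varied, with 2 lower and 1 higher. Among all varying genes 34.0% were lower and 34.8% were higher. Kcnk2, Kcnk4 and Kcnk10 encode TREK-1, TRAAK and TREK-2, which form 1 mechanosensitive and lipid-sensitive branch. Kcnk4 had 7.51, 7.78, 7.91, 7.73 and 7.60 in Sham and 6.62 to 7.31 (median 7.14) in MCAO. Its groups were apart, and the change was -0.71 ± 0.15 (SE; limma adjusted p = 0.00501). Kcnk2 had 8.81, 8.91, 9.0, 8.88 and 8.92 in Sham and 8.38 to 8.74 (median 8.56) in MCAO. Here too no rat overlapped, with a change of -0.33 ± 0.05 (SE; limma adjusted p = 0.00193).

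Kcnk10 went the other way. Its signals were 6.38, 6.46, 6.55, 6.39 and 6.49 in Sham and 6.48 to 7.28 (median 6.94) in MCAO. MCAO 4 lay inside the Sham range and the other 6 rats were above it. The log2 change was 0.44 ± 0.11 (SE; limma adjusted p = 0.0118), or 1.36-fold. This gene passed the filter through 6 MCAO rats and 0 Sham rats, so it was tested because it was high in MCAO.

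Kcnk13 encodes THIK-1, a resting conductance of microglia. It had 0.32 ± 0.12 (SE) and did not pass (limma adjusted p = 0.0526), but it did without MCAO 4 or Sham 5 (adjusted p of 0.0148 and 0.0447). Kcnk1, the TWIK-1 gene, had -0.38 ± 0.17 (limma adjusted p = 0.0993), and without MCAO 4 the adjusted p was 0.023. The related gene Kcnk6 is represented by a near-constant probe set. A further probe set of Kcnk6 had a nearly equal mean and gave 6.33 ± 0.07 (SD, n = 5) in Sham rats, against 7.06 ± 0.31 (SD, n = 7) after MCAO. All MCAO rats were above all Sham rats there, with a change of 0.73 ± 0.14 (SE; limma adjusted p = 0.0035), and it too passed the filter through MCAO rats alone. Leaving near-constant probe sets out of the analysis made the number of higher Kcn genes 4 in place of 2, the additional ones being Kcnk6 and Kcnk13. Kcnk1 was then called lower (limma adjusted p = 0.0467).

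Kcne4 had the largest rise of the probe sets that stand for a gene. Its product is a single-span membrane protein that dampens several Kv1 and KCNQ channels. It had 7.10, 7.11, 7.16, 7.05 and 7.12 in Sham rats and 7.57 to 7.99 (median 7.83) in MCAO rats. All 7 MCAO rats stood clear of the Sham range, and the log2 change was 0.70 ± 0.07 (SE; limma adjusted p = 0.00031), or 1.62-fold. Kcne2 and Kcne3 were near-constant by their representative probe sets, and Kcne1 was below the filter.

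The near-constant genes were Kcna5, Kcna6, Kcnab3, Kcnb2, Kcne2, Kcne3, Kcng2, Kcnh2, Kcnh4, Kcnh6, Kcnh8, Kcnip1, Kcnj5, Kcnj8, Kcnj13, Kcnj14, Kcnj15, Kcnk3, Kcnk5, Kcnk6, Kcnk9, Kcnk12, Kcnn1, Kcnn3, Kcnq3, Kcns1 and Kcns2. Their mean log2 signals ran from 6.66 to 8.97 and no group difference was above 0.01. The test called 6 of these 27, and those calls are not used here. The 12 genes with no probe set past the filter were Kcna3, Kcne1, Kcnh5, Kcnh7, Kcnj1, Kcnj2, Kcnj10, Kcnk15, Kcnmb1, Kcnn4, Kcnq1 and Kcnv2. None of them had a varying probe set, so their values too cannot be read as low expression. In the RefSeq gene order Kcna2, Kcnj16 and Kcnj9, which fell, lie next to Kcna3, Kcnj2 and Kcnj10, respectively. All of these neighbours were below the filter. Kcnj6, which fell, lies next to Kcnj15, which was near-constant.

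Different probe sets of 1 gene did not always agree. Of the varying Kcn genes, 10 had several varying probe sets, and in 7 all changes had the same sign. Of the 14 further probe sets, 1 was called, and 12 had a smaller absolute change than the representative. The called one was the further probe set of Kcnip2, at -0.18 ± 0.04 (SE; limma adjusted p = 0.00786). For Kcnc2 the further varying probe sets had changes of -0.03, -0.14 and 0.07, and none passed. Averaging over all tested probe sets of a gene, near-constant ones included, gave -0.31 for Kcnc4, -0.24 for Kcna2, -0.26 for Kcnab2 and -0.15 for Kcnj16. It gave -0.065 for Kcnj6, -0.17 for Kcnk2 and -0.15 for Kcnt1, and all these calls were kept. Except for Kcnab2, the further tested probe sets of these genes were near-constant. Averaging with such values shrinks the change and the spread between rats alike, so a kept call does not show that the probe sets agree. For Kcnd3 the further probe set had 0.04, and for Kcnma1 the further ones had 0.11 and 0.04, opposite in sign to the representative.

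**Figure D3:**
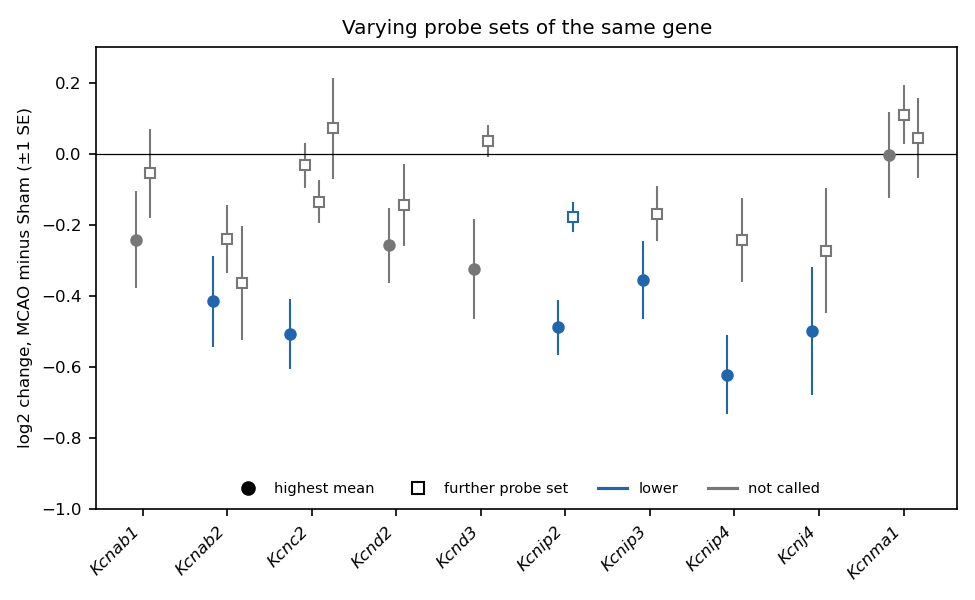
Log2 change, MCAO minus Sham, of every varying probe set of the 10 genes with several; filled circles are the probe sets with the highest mean, open squares the further ones, bars are 1 SE and blue marks a lower call. Kcnip2 is the gene with a further probe set called lower, and the further probe sets of Kcnc2 lie near 0.

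The 20 lower genes did not fall equally in every rat. The mean difference from the Sham mean over these genes was -0.58, -0.27, -0.58, -0.20, -0.58, -0.75 and -0.34 in MCAO 1 to MCAO 7, and between -0.08 and 0.07 in the Sham rats. MCAO 6 had the lowest value of its group in 14 of the 20 genes. MCAO 4 had the highest in 12 genes and MCAO 2 in 6. The SD was larger in MCAO than in Sham for all 36 varying Kcn genes, as for 89.4% of all varying genes. The count of lower genes depended on single rats, with 13 in place of 20 when Sham 2 was left out.

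**Figure D4:**
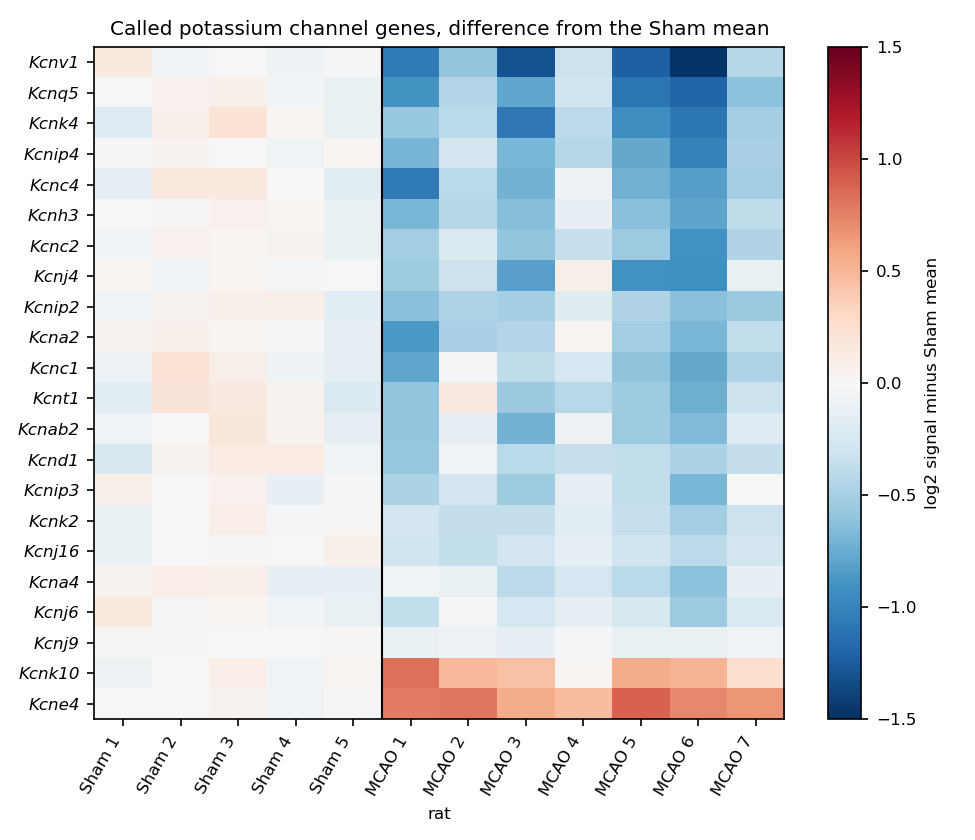
Log2 signal minus the Sham mean for the 22 called potassium channel genes (rows) in each rat (columns), blue for lower and red for higher. MCAO 4 and MCAO 2 are the palest MCAO columns over the 20 lower genes, with means of -0.20 and -0.27, and MCAO 6 is the darkest with -0.75.

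Cell type markers are read against the same background, with 34.0% of all varying genes lower and 34.8% higher. Snap25, a neuronal synaptic protein that checks the tissue, had mean log2 signals of 13.06 in MCAO and 13.31 in Sham. Of 7 varying general neuron markers 3 were lower and 0 higher, with a mean difference from Sham of -0.41 to -0.06 across the MCAO rats and of -0.07 to 0.07 across the Sham rats. All 5 varying striatal neuron markers were lower (-1.01 to -0.62 in MCAO). Of 5 varying astrocyte markers 4 were lower (-0.68 to -0.04). In MCAO 4 and MCAO 2 the neuron list was at -0.12 and -0.06, the smallest differences of the MCAO rats. The same rats had the smallest differences in the striatal neuron (-0.75 and -0.62) and astrocyte (-0.04 and -0.33) lists. This held too for the macrophage (1.16 and 1.06) and reactive astrocyte (1.51 and 1.54) lists.

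Macrophage and monocyte markers were higher in 6 of 6 varying members (1.06 to 1.95 in MCAO, -0.04 to 0.13 in Sham), as were reactive astrocyte markers in 5 of 5 (1.51 to 2.47 in MCAO). Both varying neutrophil markers, S100a8 and S100a9, were higher. Their mean log2 signals in Sham, 6.48 and 6.27, lay under the filter level of 6.61. They may therefore have passed the filter through the MCAO rats. The Sham means of Cd14 and Itgam (macrophage list) and of Lcn2 and Serpina3n (reactive astrocyte list) lay under that level too. Ccr2 of the macrophage list and Mpo, Elane and Csf3r of the neutrophil list were not tested. Of 3 varying microglia markers 2 were lower and 1 was higher. Of 4 varying endothelial markers 2 were higher, of 3 varying pericyte and smooth muscle markers 1 was higher, and of 3 varying oligodendrocyte markers 1 was lower. None of 2 varying choroid plexus and ependyma markers or of 1 varying oligodendrocyte precursor marker passed, and all 3 tested T cell markers were near-constant. The part of any of these cells in the potassium channel results was not tested.

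The 12 varying spike-in probe sets differed between the groups by -0.145 to 0.239, in 6 MCAO and 5 Sham rats, since the control rows of MCAO 6 were displaced and left out. Of the called Kcn genes, Kcnj9 alone changed by less than this. The actin signal at the 3' end minus that at the 5' end was 1.27 to 1.47 in the same 6 MCAO rats and 1.40 to 1.46 in Sham, and array medians were 7.23 to 7.28.

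Genes that work with potassium channels but are named otherwise were taken from a list of 45, of which 35 were tested and 27 varied. Of these 17 were lower and 2 were higher, against 34.0% and 34.8% of all varying genes, with a median log2 change of -0.31. The strongest lower statistics were those of Calm2, a calmodulin that acts as the calcium sensor of several channels (-0.25 ± 0.04, SE; limma adjusted p = 0.00177), and Dlg3, a synaptic scaffold (-0.62 ± 0.10; limma adjusted p = 0.00199). Next came Gnb5, a G protein beta subunit tied to rectifier signalling (-0.51 ± 0.09; limma adjusted p = 0.00225), and Dpp6, a Kv4 auxiliary subunit (-0.40 ± 0.08; limma adjusted p = 0.00404). Dpp10, the other Kv4 auxiliary gene of the list, fell too (-0.65 ± 0.16; limma adjusted p = 0.00862).

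Of the 10 varying genes for axonal and synaptic anchoring of channels, 8 were lower, against 34.0% of all varying genes. On the higher side, Vapa, a membrane contact protein that clusters Kv2 channels, rose by 0.20 ± 0.04 (SE; limma adjusted p = 0.00354). Slc12a7, a potassium-chloride cotransporter, rose by 0.23 ± 0.06 (SE; limma adjusted p = 0.0157). Both rises lay within the range of the spike-in differences between the groups (-0.145 to 0.239). The change of Nedd4, called lower, did too (-0.09). The next strongest, Slc12a2 (0.09 ± 0.04; limma adjusted p = 0.13) and Nedd4l (0.12 ± 0.08; limma adjusted p = 0.23), did not pass. The related genes Hcn2, Hcn3 and Hcn4 were near-constant.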

How the data were processed

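Total RNA was extracted with TRIzol and cleaned on RNeasy columns, and biotin-labelled cRNA was made from 100 ng, per the labels' protocols. The authors deposited 1 table of values for 31099 probe sets on 12 arrays. The deposited values were read as log2, judged from their range, since the table does not name the base. Background correction, summarization and normalization were not given in the sources used here.

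Probe sets of exactly 1 gene were kept (20832; 436 with several genes were not used). The 17250 that exceeded the 25th percentile of all values on 5 or more arrays were fitted with limma 3.58.1 in R 4.3.3 (lmFit, eBayes with trend, two-sided tests). P-values were adjusted by Benjamini-Hochberg across these probe sets. The probe set of highest mean decided a gene's call. The fit was tested on simulated data. All 75 Kcn symbols matched the current RefSeq table.

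Every varying Kcn gene is named. Values by rat are given for called genes (the 6 largest rises, the 10 largest falls) and for the strongest statistic in each subfamily. Of the partner genes the 4 strongest in each direction are named, and Dpp10, Kcnk6, Hcn2, Hcn3 and Hcn4 were picked after their values were seen. The members and lists were chosen with earlier results of these data known. P-values set the group difference against the spread between rats. In limma this spread is moderated over all tested probe sets, near-constant ones included. The 25 alternatives comprised 2 scalings, 3 filters, 3 treatments of multiple or cross-hybridizing probe sets, 4 other fits, an exact permutation test and leaving out each of the 12 rats.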

Additional observations from a re-analysis of the deposited data

Results flagged for a closer look

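Within the groups of rats, 72 sets of values (36 genes in 2 groups) were examined for a rat far from the others, and chance marks about 1 in 20 such sets. Such a gap was found in 2, both for the rat MCAO 4. Its Kcnip2 signal was 9.089, the highest of the MCAO rats, with the nearest other at 8.819 and a gap of 0.606 of the group's range. Its Kcnj16 signal was 8.179, also the highest, with the nearest other at 8.027 and a gap of 0.595 of the range. Both values stayed below every Sham rat.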

How the results depend on the processing

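The 20 lower and 2 higher Kcn genes were recomputed under 25 alternatives. Called in all 25 were Kcnd1, Kcnh3, Kcnip2, Kcnip4, Kcnj16, Kcnk2, Kcnq5 and Kcnv1 as lower and Kcne4 as higher. The calls lost most often were those of Kcnj4 (13 alternatives), Kcna4 (8) and Kcnt1 (8). Leaving out 1 rat gave 13 to 22 lower and 2 to 3 higher Kcn genes, and 13 to 19 lower and 2 to 3 higher partner genes. Higher Kcn genes numbered 4 with near-constant probe sets left out and 4 with the mean of the probe sets of a gene. Lower Kcn genes numbered 23 and 18 in these alternatives. With near-constant probe sets left out, Kcnd2, Kcnd3, Kcnj11 and Kcnk1 were gained as lower and Kcnj9 was lost. With the mean, Kcnc2 and Kcnj4 were lost. A filter at the 50th percentile left 1 higher Kcn gene and 1 higher partner gene. Array weights gave 26 lower Kcn genes. The replicate numbers do not name the same animal. Deviations of same-numbered rats correlated at 0.317, 0.536, -0.335, -0.0456 and 0.159. MCAO 1, MCAO 2 and MCAO 5 correlated best with the Sham rat of their own number, and MCAO 3 and MCAO 4 did not. A fit with the replicate number as a block drops MCAO 6 and MCAO 7, and in it 11 Kcn genes and 10 partner genes were lower. The calls of Kcna2, Kcna4, Kcnab2, Kcnc4, Kcnip3, Kcnj4, Kcnj6, Kcnk4 and Kcnt1 were lost there. Kcnk10 was no longer called higher (adjusted p = 0.0622), and the 2 higher Kcn genes were Kcne4 and Kcnk13. Kcnmb4, which never passed, turned sign with array weights (0.0063), and leaving out 1 rat gave -0.036 to 0.0056 (0.0051 without MCAO 2 and 0.0056 without Sham 5); the cause was not tested. For the other values given by rat, 416 comparisons kept direction and call and 30 lost the call. Near-constant values and signals near the filter level limit what can be read for Kcnk6, Kcnk10 and the 27 near-constant genes.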

Other observations

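In 3 Kcn probe sets the signal varied but exceeded the filter level in fewer than 5 arrays. They are given with the fit that used no filter. A second Kcnk10 probe set gave 6.0 ± 0.03 (SD, n = 5) in Sham rats, against 6.54 ± 0.35 (SD, n = 7) after MCAO, a log2 change of 0.54 ± 0.16 (SE; limma adjusted p = 0.0228). It changed in the same direction as the tested Kcnk10 probe set. A Kcne2 probe set whose suffix marks possible cross-hybridization had a change of -0.37 ± 0.13 (SE; limma adjusted p = 0.0438), opposite to Kcne4. A Kcnj15 probe set had 0.53 ± 0.23 (SE; limma adjusted p = 0.0983), which did not pass, and MCAO 1 was the highest rat at 7.68.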
